A study of Mus musculus with 6 samples.

Results

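The genes described here are the 31 of 34199 counted in HOXA9-immortalized granulocyte-macrophage progenitors (iGMPs) whose transcripts were almost lost 24 h after the HOXA9 fusion was switched off. They were chosen by their read counts in the control and HOXA9 OFF libraries, as CPM, the counts of a gene scaled to a common total of gene counts in every library. A gene entered when it had at least 3 CPM in both controls and when the higher HOXA9 OFF value was at least 8-fold below the lower control value. Flt3, Cd34, Sox4, Car2 and all symbols starting with Hox or Meis were set aside by name. Flt3 and Car2 met the thresholds, so 33 genes did before this step. In all, 9819 genes had at least 3 CPM in both controls, and the selected genes made up 0.316% of these.

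The cells were a mouse bone marrow line that carries a Lysozyme promoter-driven GFP reporter and HOXA9 fused to the ligand-binding domain of a mutant estrogen receptor, grown with stem cell factor, so that all groups shared the fusion and the reporter. Control cultures received IPTG and estradiol, CAF-1 OFF cultures received 500 µM IPTG to induce a short hairpin RNA against Chaf1b with estradiol kept at 150 ng/ml, and HOXA9 OFF cultures had estradiol washed out, all for 24 h with 2 libraries a group. The labels gave neither the clone behind each library nor whether the HOXA9 OFF cultures received IPTG, so estradiol need not be the only difference between HOXA9 OFF and control. The study speaks of independent sub-clones for RNA-seq at other times, but no source used here ties these to the libraries at 24 h, so the p-values may measure only the technical spread between libraries.

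HOXA9 is a homeodomain transcription factor that is active in stem and progenitor cells, is shut down as myeloid cells mature and is often high in acute myeloid leukaemia. It binds DNA together with PBX and MEIS partners, mostly at enhancers shared with myeloid factors such as C/EBP. In the fusion used here, the hormone keeps the protein active, so its removal stops HOXA9 at the protein level while the transcript remains.

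The libraries held between 16773560 and 25170898 gene counts, at which 3 reads corresponded to 0.119 to 0.179 CPM. Chaf1b, the CAF-1 component targeted by the hairpin, stood at 91.0 and 108 CPM in control, 17.9 and 12.4 in CAF-1 OFF and 61.6 and 59.7 in HOXA9 OFF. Hoxa9 transcript gave no check of the washout, with 280 and 219 CPM in control and 340 and 353 in HOXA9 OFF. All 13 progenitor markers found in the files had reads in all 6 libraries, among them Mpo (4219 to 8150 CPM) and Elane (291 to 951), but not at one level. Cd34 went from 1826 and 1845 CPM in control to 461 and 493 in HOXA9 OFF, Kit from 718 and 557 to 286 and 255, and Flt3 from 240.1 and 338 to 4.79 and 3.36. Ctsg was lower as well, and Mpo, Elane and Cebpa overlapped control. Other markers went up, among them Irf8 (36.0 and 27.6 CPM in control, 169 and 170 in HOXA9 OFF) and Sfpi1 (190 and 159 against 534 and 428). For Fcgr3, Fcgr2b and Ms4a3, too, both HOXA9 OFF libraries were above both controls. By the edgeR test described below, Cd34 fell by 1.86 ± 0.13 (SE) on the log2 scale (FDR 0.000482) and Kit fell by 1.16 ± 0.16 (FDR 0.00366). Markers of other cell types also moved. The summed level of 11 mast cell, basophil and eosinophil genes was 814 to 1224 CPM in control, 1289 to 1828 in CAF-1 OFF and 4115 to 5414 in HOXA9 OFF, most of it Prg2, whereas Fcer1a was at 0 in control. Its part in the results below was not tested. In bulk RNA, fewer cells of a type and less RNA per cell cannot be told apart.

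Promoter sequences are shown first for the selected genes whose promoter held a motif of a factor tied to HOXA9, signalling or estradiol. RefSeq gave a promoter (250 bases before to 50 after a start) for 23 of the 31 genes on GRCm38.p6. Both strands were searched for 5 motifs. The HOX-PBX motif TGATTTAT was in 0 of the 23 genes and in 1.15% of 27025 genes with a promoter. The C/EBP motif TTGCGCAA (0.207% of all genes) and the estrogen response element GGTCANNNTGACC (0.074%) were also in 0 of 23. The MEIS motif TGACAG was found in 4 genes (17.4%, against 21.6% of all genes) and the ETS motif CCGGAA in 4 (17.4%, against 16.7%). The motifs do not overlap each other in these windows. Median G+C content was 58.7% over the 27 promoters of these genes and 52.7% over all promoters, and the median number of CpG dinucleotides was 11 against 7. Sequences run 5′ to 3′ on the strand of the gene, and capitals mark a MEIS or ETS match on either strand:
Hlf chr11:90390868-90391167 (-): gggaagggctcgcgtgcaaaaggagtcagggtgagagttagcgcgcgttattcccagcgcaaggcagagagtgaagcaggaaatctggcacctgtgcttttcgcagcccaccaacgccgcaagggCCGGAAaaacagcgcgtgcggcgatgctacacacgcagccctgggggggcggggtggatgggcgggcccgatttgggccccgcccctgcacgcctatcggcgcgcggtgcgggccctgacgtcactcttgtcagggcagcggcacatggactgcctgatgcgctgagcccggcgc
Aebp1 chr11:5861616-5861915 (+): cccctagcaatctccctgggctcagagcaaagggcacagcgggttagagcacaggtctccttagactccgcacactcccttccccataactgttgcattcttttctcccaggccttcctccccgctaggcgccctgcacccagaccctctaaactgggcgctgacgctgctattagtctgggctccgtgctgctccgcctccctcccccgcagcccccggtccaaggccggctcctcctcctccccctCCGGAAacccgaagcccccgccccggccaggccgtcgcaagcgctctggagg
Gpr12 chr5:146585190-146585489 (-): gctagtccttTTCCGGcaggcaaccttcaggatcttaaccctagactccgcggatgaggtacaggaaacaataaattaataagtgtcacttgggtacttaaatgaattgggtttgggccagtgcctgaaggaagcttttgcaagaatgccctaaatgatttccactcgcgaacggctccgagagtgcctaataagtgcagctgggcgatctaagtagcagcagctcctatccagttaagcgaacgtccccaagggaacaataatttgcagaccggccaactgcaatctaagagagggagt
Slc22a3 chr17:12507655-12507954 (-): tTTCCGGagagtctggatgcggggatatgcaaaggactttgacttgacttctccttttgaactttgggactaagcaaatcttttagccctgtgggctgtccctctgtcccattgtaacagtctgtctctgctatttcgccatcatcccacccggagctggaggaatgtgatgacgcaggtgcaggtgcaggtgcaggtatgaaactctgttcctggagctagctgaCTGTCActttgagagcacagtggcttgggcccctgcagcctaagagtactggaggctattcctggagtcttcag
Trib2 chr12:15816736-15817035 (-): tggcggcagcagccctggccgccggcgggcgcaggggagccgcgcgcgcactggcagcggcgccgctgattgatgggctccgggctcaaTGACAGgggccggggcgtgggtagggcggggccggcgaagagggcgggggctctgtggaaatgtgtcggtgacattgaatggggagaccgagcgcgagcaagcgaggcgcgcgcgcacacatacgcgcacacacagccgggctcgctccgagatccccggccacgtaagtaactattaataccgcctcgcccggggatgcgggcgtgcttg
Rag2 chr2:101624462-101624761 (+): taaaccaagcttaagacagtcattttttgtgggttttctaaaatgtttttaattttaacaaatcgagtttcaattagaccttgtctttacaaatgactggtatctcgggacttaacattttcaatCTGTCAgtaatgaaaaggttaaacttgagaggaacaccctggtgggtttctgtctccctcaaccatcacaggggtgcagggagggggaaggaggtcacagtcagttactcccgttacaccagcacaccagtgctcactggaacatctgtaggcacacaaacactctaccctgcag
Myh7b chr2:155610993-155611292 (+): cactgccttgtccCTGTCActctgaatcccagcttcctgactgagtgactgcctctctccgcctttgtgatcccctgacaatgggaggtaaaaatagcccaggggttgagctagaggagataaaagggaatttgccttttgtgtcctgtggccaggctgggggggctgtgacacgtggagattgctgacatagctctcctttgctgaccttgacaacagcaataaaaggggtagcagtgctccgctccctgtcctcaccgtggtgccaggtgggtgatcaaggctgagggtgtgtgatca
These 7 genes hold all 8 matches, since the promoter of Slc22a3 has one of each kind. They cover very different levels in the cells, from Hlf at 267 and 251 CPM in control to Trib2 at 15.7 and 15.3.

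The loss in HOXA9 OFF was deep across the set. The HOXA9 OFF mean was 0.315% to 10.9% of the control mean, with a median of 4.48%, and it was under 5% in 17 genes and under 2% in 8. These values chose the genes, so no test is given for them. Control means ran from 3.63 to 621 CPM with a median of 26.4, below the median of 50.5 over all genes at 3 CPM or more. Per kilobase of exon, Sdc1 was the highest in control (163 CPM per kb), ahead of Zfp703 (80.6) and Hlf (39.9), and Myh13 was the lowest (0.747). Median exon length was 3809 bases against 3796 over those genes, and all 31 were annotated as protein coding.

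**Figure D1:**
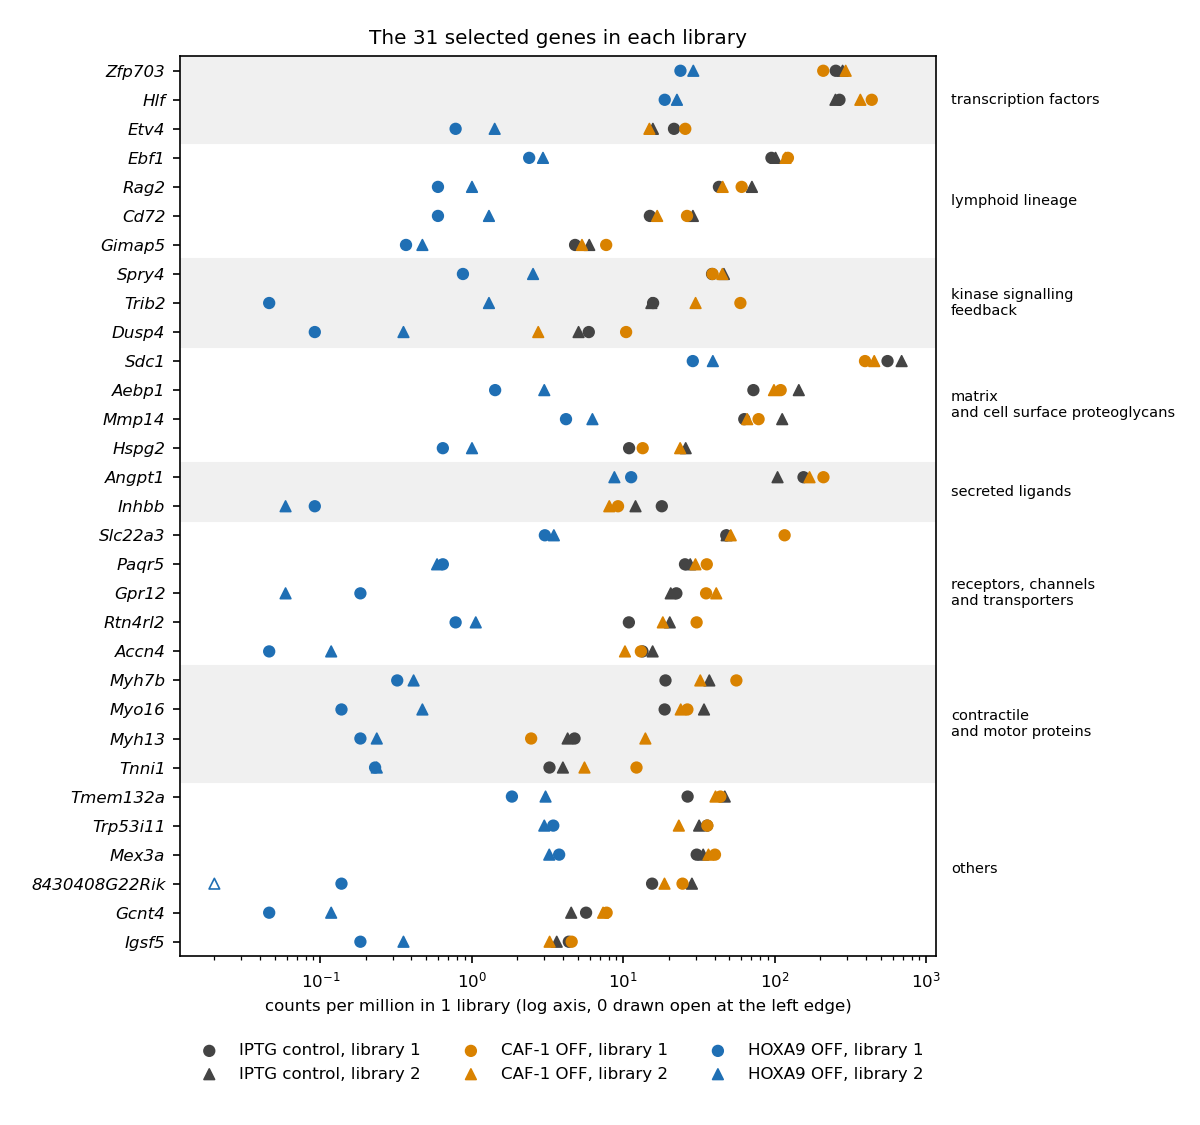
CPM of the 31 selected genes in each of the 6 libraries on a log axis, grouped by role, with circles for library 1 and triangles for library 2. Both HOXA9 OFF libraries lie left of the other 4 in every row, and control means reach 621 CPM for Sdc1.

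At the threshold, the nearest genes inside were Mex3a (lower control over higher HOXA9 OFF, 8.09-fold), Tmem132a (8.66) and Zfp703 (8.72). Just outside lay 6030408B16Rik (7.72), Gimap6 (7.65) and Gimap1 (7.41). On the control minimum, Tnni1 (3.26 CPM in the lower control), Igsf5 (3.64) and Myh13 (4.29) were just inside. Rag1 (2.74), Wnt10a (2.68) and Slc2a7 (2.5) missed it.

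Transcription factors of the set include Hlf, Zfp703 and Etv4, beside Ebf1, which is given with the lymphoid genes. Hlf, a PAR-family bZIP factor of hematopoietic stem cells (chr11:90197849-90252231 on mm9, minus strand), had 267 and 251 CPM in control, 436 and 367 in CAF-1 OFF and 18.8 and 22.6 in HOXA9 OFF. Both CAF-1 OFF libraries were above both controls and both HOXA9 OFF libraries were far below. Zfp703, a zinc finger corepressor (chr8:28087808-28091933), stood at 253 and 280 CPM in control, 209 and 294 in CAF-1 OFF and 23.8 and 29.0 in HOXA9 OFF, so CAF-1 OFF overlapped control. Etv4, an ETS factor of the PEA3 family that acts downstream of growth factor signalling, had 21.6 and 15.7 CPM in control, 25.7 and 14.9 in CAF-1 OFF and 0.782 and 1.42 in HOXA9 OFF. The mean left in HOXA9 OFF was 7.98% of control for Hlf, 9.91% for Zfp703 and 5.90% for Etv4.

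Another 4 genes are best known from lymphocytes, although the cells were myeloid progenitors. Ebf1, the factor that specifies the B lineage (chr11:44430819-44821593), had 95 and 101 CPM in control, 122 and 118 in CAF-1 OFF and 2.39 and 2.95 in HOXA9 OFF. Rag2, a subunit of the V(D)J recombinase (chr2:101464875-101472685), had 42.8 and 70.6 CPM in control, 60.4 and 45.3 in CAF-1 OFF and 0.598 and 1.00 in HOXA9 OFF. Its partner Rag1 showed 69 and 103 reads in control and 1 and 0 in HOXA9 OFF, and missed the set on the control minimum alone. Rag2 overlaps B230118H07Rik on the opposite strand, which had 27 and 31 reads in control and 1 and 0 in HOXA9 OFF. Because the strand setting of the counting was not given, reads of this pair cannot be told apart. Cd72, an inhibitory co-receptor of B cells, had 15 and 28.8 CPM in control, 26.3 and 16.7 in CAF-1 OFF and 0.598 and 1.30 in HOXA9 OFF. Gimap5, a GTPase that supports lymphocyte survival, had 4.81 and 5.96 CPM in control, 7.71 and 5.34 in CAF-1 OFF and 0.368 and 0.472 in HOXA9 OFF, and overlaps Gimap1 on the same strand. CAF-1 OFF overlapped control for Rag2, Cd72 and Gimap5 and lay above it for Ebf1.

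In a list of 12 lymphoid genes, 2 (Ebf1 and Rag2) were selected, 6 others were tested, and 4 of these were lower and 0 higher in HOXA9 OFF. The test was the edgeR quasi-likelihood test, with a gene called at 1.5-fold or more and a Benjamini-Hochberg FDR under 0.05, which called 22% of the 12460 genes tested (13% higher and 8.97% lower). Rag1 was called at an edgeR FDR of 0.0019, with a pooled HOXA9 OFF level of 0.63% of control (95% exact interval 0.0159% to 3.56%). Dntt, the polymerase that adds bases at V(D)J junctions, had 46 and 23 reads in control and 2 and 3 in HOXA9 OFF (FDR 0.0035). Lck, a T cell kinase, fell by 2.68 ± 0.61 (SE) on the log2 scale (FDR 0.018). Cd79a, a subunit of the B cell receptor complex, had 37 and 81 reads in control and 68 and 72 in HOXA9 OFF, and Il7r, the interleukin-7 receptor, 1 and 9 against 6 and 23, and neither was called. The lower calls fell from 4 to 2 without control 2, without HOXA9 OFF 1 or at 2-fold and FDR under 0.01, and to 0 at a mean CPM of at least 5. The summed level of the lymphoid genes that were not selected was 8.14 to 18.1 CPM in control and 3.86 to 6.49 in HOXA9 OFF. Cd3e, Cd3g, Pax5 and Ncr1 had at most 3 reads in every library.

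The next group is best known for feedback on kinase signalling. Spry4, a Sprouty inhibitor of receptor tyrosine kinase signalling, had 38.5 and 46.1 CPM in control, 38.8 and 45.1 in CAF-1 OFF and 0.874 and 2.54 in HOXA9 OFF. Dusp4, a nuclear phosphatase of MAP kinases, had 5.92 and 5.07 CPM in control, 10.4 and 2.75 in CAF-1 OFF and 0.092 and 0.354 in HOXA9 OFF. The CAF-1 OFF libraries of Dusp4 fell on either side of control. Trib2, a pseudokinase that promotes degradation of C/EBPα, had 15.7 and 15.3 CPM in control and 59.3 and 30.0 in CAF-1 OFF. In HOXA9 OFF it had 1 read in library 1 and 22 in library 2, a 28.2-fold difference in CPM between replicates. Its pooled level was 3.82% of control (95% exact interval 2.40% to 5.78%, for counting error only), and the range between the libraries was wider than that.

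Relatives of these genes and of Etv4 lay on both sides of control in HOXA9 OFF. Dusp6, which removes phosphate from ERK, was at 12.7% of control in HOXA9 OFF (262 against 33.3 CPM in the means), Spry1 at 18.0%, Spry2 at 34.7% and Etv5 at 27.4%. The mean was also lower for Trib3 (24.4%) and Dusp2 (61.4%). Means above control were those of Dusp5 (514%), another phosphatase of ERK, and of Dusp1 (160.5%), Dusp7 (149.5%) and Trib1 (121%). Etv4 and Etv5 had like levels per length in control (6.01 and 5.30 CPM per kb), whereas Dusp6 exceeded Dusp4 (93.9 against 2.00 CPM per kb).

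Relatives were listed for all selected genes once these were known, so the counts are a description. Of 74 relatives in the files, 24 had at least 3 CPM in both controls. By construction, 0 of the 24 passed the 8-fold threshold, since a relative that did would itself be selected. In 8 of them both HOXA9 OFF libraries were at or under 50% of the lower control, against 2.78% of all genes at this level, and in 7 both were above both controls, against 29.5% of all genes at this level. The 8 came from few families, and Gimap1 (10.4% of control), Gimap6 (9.28%) and Gimap9 (22.2%) are neighbours in 1 cluster. Rtn4r, the Nogo receptor and relative of Rtn4rl2, was at 16.7%, while Myh9 (203%), Paqr7 (259%) and Gcnt1 (198%) were above control.

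**Figure D2:**
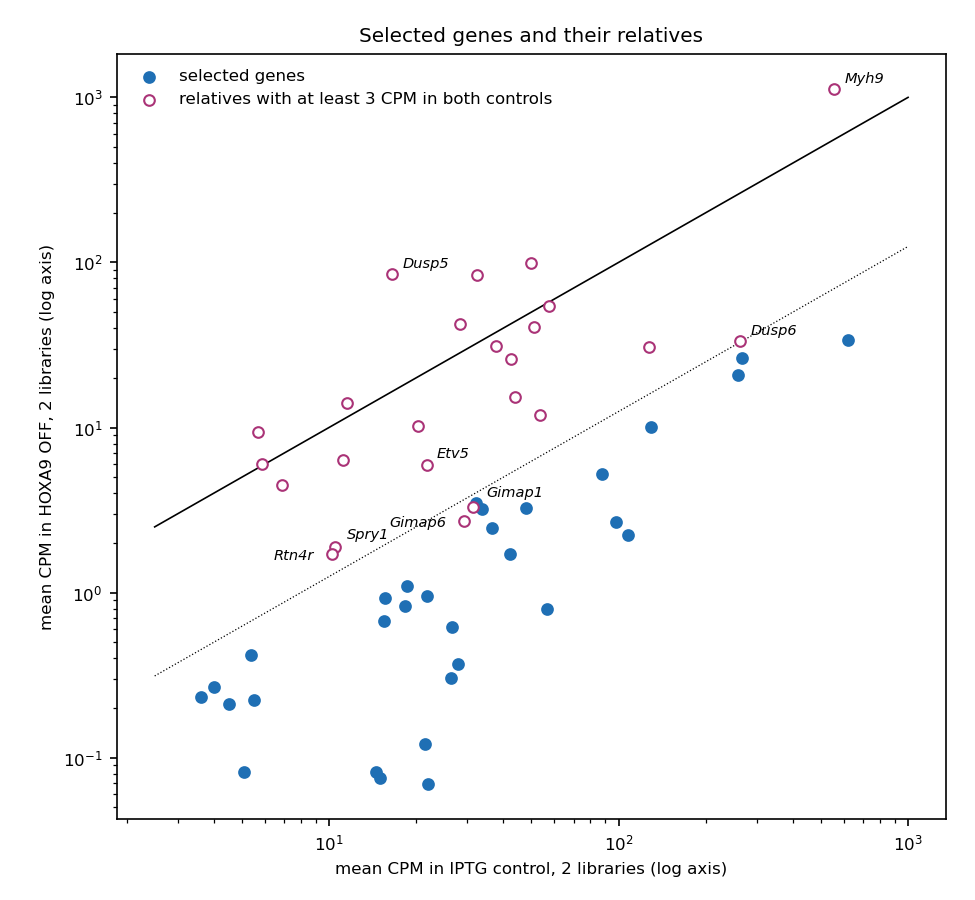
Mean CPM in HOXA9 OFF (y) against mean CPM in control (x), 2 libraries each, both on log axes, for the 31 selected genes (filled) and the 24 relatives with at least 3 CPM in both controls (open). The solid line marks equal levels and the dotted line 8-fold lower. The relatives spread from Dusp5 at 514% of control down to Gimap6 at 9.28%.

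Another 4 genes encode proteins of the cell surface and matrix, among them Sdc1, the highest of the set in control. Sdc1, the heparan sulfate proteoglycan syndecan-1 (chr12:8778129-8800521), had 555 and 687 CPM in control, 394 and 453 in CAF-1 OFF and 28.8 and 39.0 in HOXA9 OFF. Both CAF-1 OFF libraries were below both controls, at 68.2% in the means. Mmp14, a membrane-bound matrix metalloproteinase, had 62.9 and 112 CPM in control, 78.2 and 65.8 in CAF-1 OFF and 4.19 and 6.26 in HOXA9 OFF. Aebp1, a matrix-associated carboxypeptidase-like protein, had 72.2 and 144 CPM in control, 109 and 98.8 in CAF-1 OFF and 1.43 and 3.01 in HOXA9 OFF. Hspg2, which encodes the basement membrane proteoglycan perlecan, had 10.9 and 25.8 CPM in control, 13.4 and 23.7 in CAF-1 OFF and 0.644 and 1.00 in HOXA9 OFF. For Mmp14, Aebp1 and Hspg2 the CAF-1 OFF values lay within or across a wide control range. Of 9 other stromal and endothelial genes, 6 had at most 3 reads in every library and could not be seen to fall. Only 2 of the 9 were tested, and Pecam1, which myeloid cells also express, was the 1 gene called, higher by 0.86 ± 0.10 on the log2 scale (edgeR FDR 0.00175).

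The secreted ligands were Angpt1 and Inhbb. Angpt1, the ligand of the receptor TIE2 that acts on stem cells and vessels (chr15:42256273-42508523), had 155 and 104 CPM in control, 209 and 170 in CAF-1 OFF and 11.3 and 8.73 in HOXA9 OFF. Inhbb, the βB subunit of activin and inhibin (chr1:121312042-121318825), had 18 and 12 CPM in control, 9.23 and 8.08 in CAF-1 OFF and 2 and 1 reads in HOXA9 OFF. Its pooled HOXA9 OFF level was 0.497% of control (95% exact interval 0.102% to 1.46%). The ligands thus stood on opposite sides of control in CAF-1 OFF without overlap.

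Among receptors, channels and transporters, Gpr12 was nearly silent. This orphan receptor, which raises cyclic AMP, had 22.4 and 20.6 CPM in control, 35.2 and 41.1 in CAF-1 OFF and 4 and 1 reads in HOXA9 OFF, a pooled 0.597% of control (95% exact interval 0.193% to 1.40%). Slc22a3, an organic cation transporter, had 47.8 and 48.1 CPM in control, 116 and 51.2 in CAF-1 OFF and 3.04 and 3.48 in HOXA9 OFF. The controls were nearly equal, whereas CAF-1 OFF library 2 had 0.441 times the CPM of library 1. Paqr5, a membrane progestin receptor, had 25.5 and 27.7 CPM in control, 35.6 and 29.9 in CAF-1 OFF and 0.644 and 0.590 in HOXA9 OFF. Rtn4rl2, a relative of the Nogo receptor, had 10.9 and 20.3 CPM in control, 30.5 and 18.2 in CAF-1 OFF and 0.782 and 1.06 in HOXA9 OFF. Accn4, an acid-sensing ion channel family member, had 13.4 and 15.6 CPM in control, 13.1 and 10.3 in CAF-1 OFF and 1 and 2 reads in HOXA9 OFF, or 0.543% of control when pooled (95% exact interval 0.112% to 1.59%).

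The contractile and motor group holds 4 genes, which encode contractile or motor proteins, most of them known from striated muscle. Myh7b, a slow-type myosin heavy chain, had 19.0 and 37.0 CPM in control, 55.8 and 32.2 in CAF-1 OFF and 0.322 and 0.413 in HOXA9 OFF. Myo16, an unconventional myosin, had 18.8 and 34.1 CPM in control, 26.5 and 23.9 in CAF-1 OFF and 0.138 and 0.472 in HOXA9 OFF. Tnni1 (slow skeletal troponin I) and Myh13 (the extraocular muscle myosin) were low, with control means of 3.63 and 4.53 CPM. In CAF-1 OFF, Tnni1 had 12.2 and 5.54 CPM, both above control, and Myh13 2.47 and 14, a 5.67-fold difference between the Myh13 libraries. The HOXA9 OFF levels of the group were 1.15% to 6.43% of control.

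Of the others, 8430408G22Rik (named Depp1 in RefSeq) was closest to silent. It had 390 and 476 reads in control, 469 and 361 in CAF-1 OFF and 3 and 0 in HOXA9 OFF, a pooled 0.376% of control (95% exact interval 0.0773% to 1.10%). The gene overlaps Rassf4 on the opposite strand, whose level moved the other way, from 66.7 and 86.3 CPM in control to 353 and 425 in HOXA9 OFF. Gcnt4, a glycosyltransferase of O-glycans, had 143 and 76 reads in control, 148 and 142 in CAF-1 OFF and 1 and 2 in HOXA9 OFF, a pooled 1.49% of control (95% exact interval 0.304% to 4.40%). Tmem132a, Trp53i11 (a p53-inducible gene), Mex3a (an RNA-binding protein) and Igsf5 (an immunoglobulin superfamily protein) kept 6.70%, 9.58%, 10.9% and 6.72% of their control level. Tmem132a had 26.6 and 46.7 CPM in control, 43.7 and 40.6 in CAF-1 OFF and 1.84 and 3.07 in HOXA9 OFF. Mex3a had 30.5 and 33.7 CPM in control, 40.3 and 36.5 in CAF-1 OFF and 3.77 and 3.25 in HOXA9 OFF, the nearest to the threshold. Trp53i11 had 35.8 and 31.7 CPM in control, 35.9 and 23.3 in CAF-1 OFF and 3.45 and 3.01 in HOXA9 OFF. CAF-1 OFF lay above control for Mex3a and Gcnt4 and overlapped it for the other 4. In all, 13 of the 31 genes overlap another annotated gene, and of those partners 7SK, Gimap1, Rassf4, Slc15a3, Tesk1 and Trpc4ap had at least 3 CPM in both controls.

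In CAF-1 OFF, where estradiol was kept, all 31 genes were held. Both CAF-1 OFF libraries had at least 50% of the lower control in each, as did 99.3% of the 9819 genes, so this share is near the background. The gap to HOXA9 OFF, at least 6.74-fold between the nearest libraries, follows from this and from the selection. The CAF-1 OFF libraries took no part in the selection, but the control and HOXA9 OFF libraries did. Both lay above both controls in 10 genes (17.8% of all genes did), below in 3 (21.9% of all genes), and overlapped in 18.

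The test of CAF-1 OFF against control called 0 of the 31 genes by edgeR (0.0321% of all genes were called, 4 of 12460). At an unadjusted p under 0.05, 8 selected genes passed, 6 higher and 2 lower, against 10.7% of all genes tested. The lowest FDR was 0.199, for Hlf. DESeq2 and the edgeR exact test each called Gpr12 and Hlf, where they called 0.961% and 1.95% of all genes tested. Without a filter on low counts, edgeR called Gpr12, Hlf, Slc22a3, Tnni1 and Trib2, and 1.9% of all genes. The median log2 difference was 0.21 over the 31 genes and −0.00436 over all genes tested, and 18 of the 31 were positive (49.2% of all genes). The median over the set ran from 0.084 without CAF-1 OFF 1 to 0.41 without control 2, and was 0.0401 at a mean CPM of at least 5 and 0.10 with the replicate block.

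The 5 genes with the highest log2 difference in CAF-1 OFF were Trib2 (1.53 ± 0.56, SE), Tnni1 (1.30 ± 0.41), Myh13 (0.86 ± 0.68), Gpr12 (0.83 ± 0.18) and Slc22a3 (0.81 ± 0.34). Myh13 ran from −0.85 to 1.61 when 1 library was left out. The 5 lowest were Inhbb (−0.79 ± 0.26), Sdc1 (−0.55 ± 0.17), Accn4 (−0.31 ± 0.23), Mmp14 (−0.27 ± 0.28) and Trp53i11 (−0.18 ± 0.22), of which Mmp14 (−0.62 to 0.20) and Trp53i11 (−0.55 to 0.12) also changed sign without 1 library. The 6 higher genes at unadjusted p under 0.05 were Trib2, Tnni1, Gpr12, Hlf (0.64 ± 0.13), Angpt1 (0.55 ± 0.22) and Ebf1 (0.29 ± 0.11). The edgeR FDR was at least 0.199 for all of these. By role, the median log2 difference ran from −0.16 for matrix and surface genes to 0.76 for contractile and motor genes, with 4 genes in each.

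**Figure D3:**
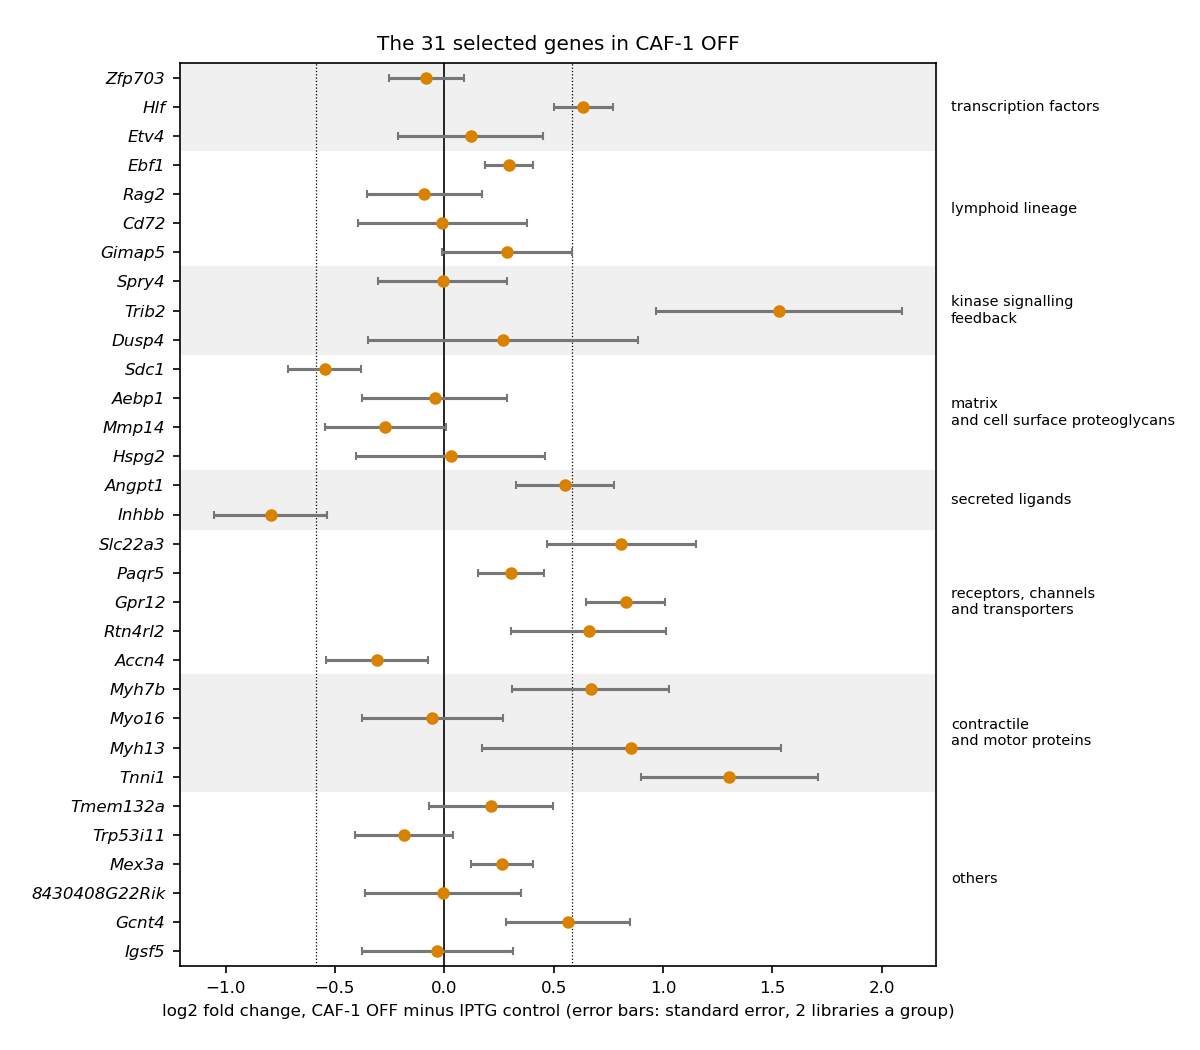
Log2 fold change of each selected gene in CAF-1 OFF against control from the edgeR fit, with bars of 1 standard error (2 libraries a group), grouped by role, and dotted lines at a 1.5-fold change. Values run from −0.79 for Inhbb to 1.53 for Trib2, and 29 of the 31 lie within 1 log2 unit of 0.

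The controls differed from each other in part of the set. Control 2 was over 1.5-fold above control 1 in 10 of the 31 genes, against 3.33% of all genes, and control 1 was over 1.5-fold above control 2 in 0. The 10 were Hspg2, Aebp1, Myh7b, Cd72, Rtn4rl2, 8430408G22Rik, Myo16, Mmp14, Tmem132a and Rag2, and the ratio over the set ran from 0.671 (Inhbb) to 2.36 (Hspg2). In these 10 genes, HOXA9 OFF 2 was above HOXA9 OFF 1 in 9, and CAF-1 OFF 2 was above CAF-1 OFF 1 in 1. The control and HOXA9 OFF values took part in the selection, and the cause of this pattern was not tested.

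**Figure D4:**
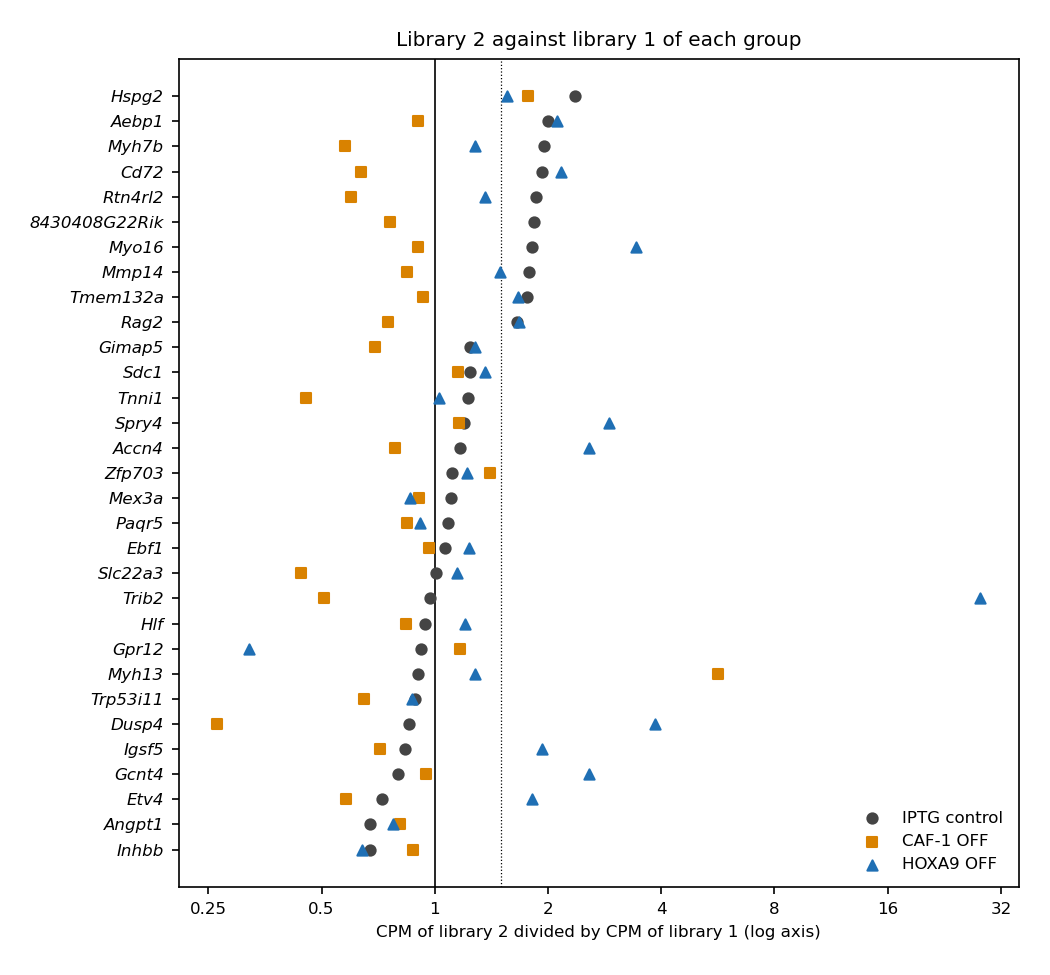
CPM of library 2 divided by CPM of library 1 for each selected gene in the 3 groups on a log axis, ordered by the control ratio, with a dotted line at 1.5. The HOXA9 OFF ratio of 8430408G22Rik, with 0 reads in library 2, is not drawn. In the upper 10 rows the controls exceed 1.5, and the widest HOXA9 OFF ratio is that of Trib2, at 28.2.

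The genes lay apart in the genome. The nearest pair, Sdc1 and Trib2 on chromosome 12, was 7.0 Mb apart. Chromosome 11 held 5 of the 31 (16.1%, against 8.50% of genes at 3 CPM or more) and chromosome 2 held 4. Of the 62 nearest expressed neighbours on either side, 3 (4.84%) had both HOXA9 OFF libraries at or under 50% of the lower control, against the 2.78% of all genes given above. They were Gimap1 beside Gimap5, Stxbp4 beside Hlf (42.6% of control) and Irs2 beside Myo16 (41.5%).

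Some genes of the HOXA9 program outside the set were also lower in HOXA9 OFF. In a list of 20 HOXA9 target and progenitor genes, 19 were tested, of which 8 were lower (5 at 2-fold and FDR under 0.01) and 3 higher by edgeR, where 8.97% of all genes tested were called lower and 13% higher. The lower genes include Flt3, Cd34, Sox4 and Meis1, which the selection had set aside by name. Flt3, the cytokine receptor of early progenitors, was lower by 6.05 ± 0.25 on the log2 scale. Flt3 met the thresholds of the selection, so no test is given for it, although it stays in the count of lower genes. Sox4 fell by 3.32 ± 0.26 (FDR 0.000579) and Meis1, the HOXA9 partner, fell by 2.02 ± 0.18 (FDR 0.000946). Mycn was called on few reads, with 24 and 18 reads in control against 3 and 0 in HOXA9 OFF (FDR 0.0433). Id2 (3.31 ± 0.33), Pim1 (3.02 ± 0.14) and Runx1 (1.48 ± 0.13) were higher. This list names genes known from work on HOXA9 and was written with results of these data known.

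Maturation genes were higher in the same libraries. Of 22 tested granulocyte and monocyte genes, 17 were higher and 1 (Ctsg) lower by edgeR, led by Chi3l3 (7.65 ± 0.58, FDR 0.000561), Cybb (7.46 ± 0.66, FDR 0.000893) and Lyz1 (7.01 ± 0.85, FDR 0.00218). The control levels of Cybb (8 and 1 reads) and Lyz1 (2 and 7) were near the floor, so the size of these changes is uncertain. Of 16 cell cycle genes, 0 were called by edgeR in HOXA9 OFF, 3 had an unadjusted p under 0.05, and DESeq2 and the edgeR exact test each called 1 (Mki67, higher), where they called 14.3% and 24% of all genes tested. The estrogen-responsive list had 4 of 10 tested genes higher (Rara, Sgk3, Ctsd and Xbp1) and 2 lower (Ccnd1 and Igfbp4). The 2 lower calls fell to 0 without control 2, without HOXA9 OFF 2 or at 2-fold and FDR under 0.01, and to 1 without HOXA9 OFF 1 or with the replicate block. The mast cell, basophil and eosinophil list had 4 of 10 higher, with Epx up by 5.72 ± 0.47 (FDR 0.000663), Il5ra by 3.46 ± 0.36 and Prg2 by 2.49 ± 0.26, and 0 lower. The megakaryocyte and erythroid list had 3 of 8 higher (Ppbp, Gata1 and Itga2b) and 0 lower. These 3 calls fell to 1 without control 2 or at 2-fold and FDR under 0.01, and Ppbp, a platelet chemokine, had 6 and 122 reads in HOXA9 OFF. In CAF-1 OFF, 0 genes outside the set were called by edgeR in any list, where it called 0.0321% of all genes tested. By the same test 26 had an unadjusted p under 0.05 (10.7% of all genes). DESeq2 called 12, all higher (0.961% of all genes), and the edgeR exact test called 12, of which 11 were higher and 1 lower (1.95%). Each called 8 of the 24 genes of the granulocyte and monocyte list. Without a filter on low counts, edgeR called 19, of which 17 were higher and 2 lower (1.9% of all genes), with 10 in that list.

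**Figure D5:**
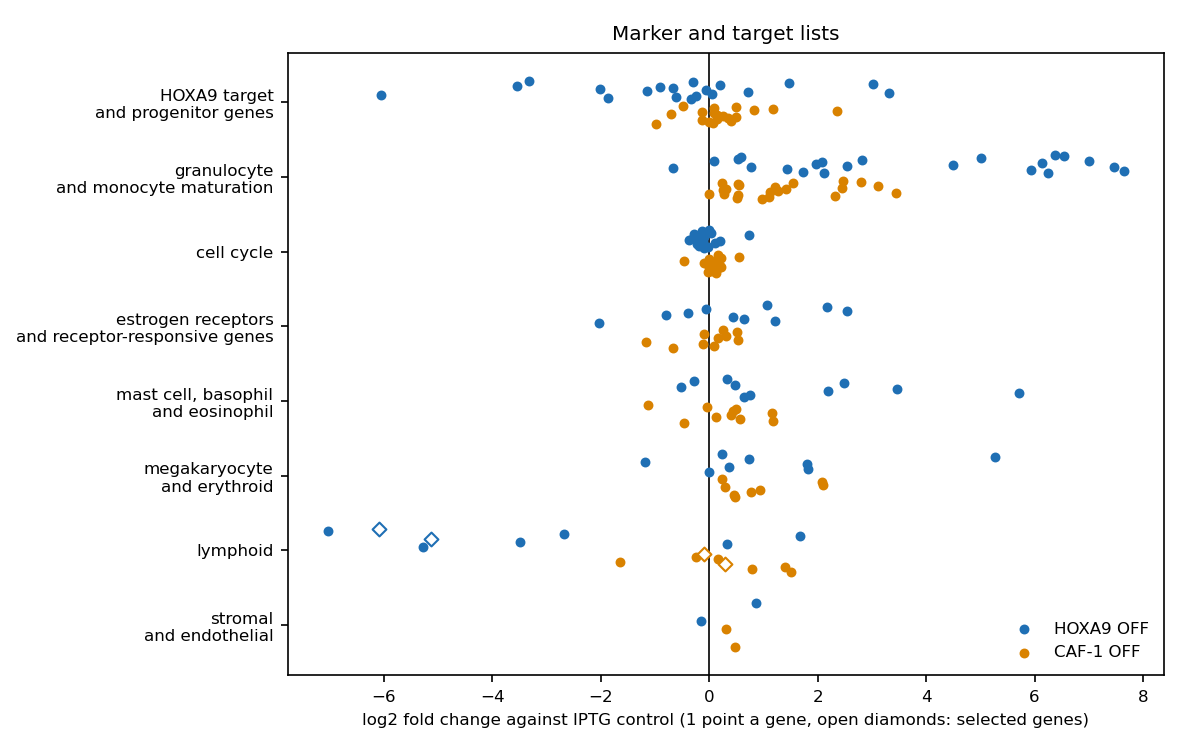
Log2 fold change of each tested gene of the 8 lists in HOXA9 OFF (blue) and CAF-1 OFF (orange) against control, with open diamonds for the selected genes Ebf1 and Rag2. In HOXA9 OFF, 17 of 22 maturation genes were called higher and 4 of the 6 lymphoid genes that were not selected were called lower.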

How the data were processed

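Bulk RNA-seq was performed on 6 libraries of mouse iGMPs from a strand-marking kit, 2 each of IPTG control, CAF-1 OFF and HOXA9 OFF at 24 h, grouped by sample title. The authors aligned reads to mm9 with STAR and counted them per gene symbol with HTSeq. The deposited values were raw counts, without normalization. The annotation, strand setting and overlap mode of the counting are not given in the sources used here, reads aligning to several places were left out by the counter, and the 5 tally lines of each file were kept out of totals (reads in no feature came to 5.95 to 8.26 per 100 gene counts).

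CPM used the summed gene counts, except in the model. In R 4.3.3, edgeR 4.0.16 fitted a quasi-likelihood model with TMM scaling (factors 0.954 to 1.03) and 1 mean per group to all 6 libraries, over the 12460 genes kept by filterByExpr. A gene was called at 1.5-fold or more and a Benjamini-Hochberg FDR under 0.05 over all genes, cutoffs stated in the study. On simulated data the script was tested before use. Standard errors come from the F statistic. Percent of control left compares means, or pooled reads where an exact (Clopper-Pearson) interval is given. PCR reads without molecular identifiers are not independent molecules, so floors of 3 counts and intervals cover counting error only.

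The members, roles, relatives and lists were chosen with earlier results of these data known. Named genes are the 12 members highest in control, the 8 with the largest ratio, the 5 highest and 5 lowest in CAF-1 OFF, the 3 genes on either side of a threshold, up to 4 a role, and the called list genes with the 3 largest changes in each direction. Stxbp4, Irs2, overlapping genes, relatives, remaining list genes and remaining members were named after their values were seen. The values of 1 list gene are not reported here, although it stays in the counts of its list. Gene coordinates are 1-based from GENCODE on NCBIM37 (mm9), and promoters are from RefSeq on GRCm38.p6. Alternatives were other rule thresholds, DESeq2 1.42.0 (size factors or Wald test), library size alone, the exact test, other filters, cutoffs and samples in the fit, a replicate block, and each library left out.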

Additional observations from a re-analysis of the deposited data

Results flagged for a closer look

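Reads that fell in no annotated gene form data outside the comparisons above. In HOXA9 OFF they came to 7.84 and 8.26 per 100 gene counts (mean 8.05), above both controls at 6.87 and 7.15, and CAF-1 OFF had 5.95 and 7.30.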

How the results depend on the processing

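The size of the set depended on the rule. It held 47 genes at a control minimum of 1 CPM, 71 at 4-fold lower, 12 at 16-fold lower and 50 when group means were compared. Without 1 library it ranged from 32 to 63, with 63 genes without control 1, 58 without HOXA9 OFF 2, 34 without control 2 and 32 without HOXA9 OFF 1. CAF-1 OFF called 0 of the 31 genes under the replicate block and the other scalings, but 2 by the DESeq2 Wald test (191 of 19883 genes called), 2 by the exact test (243 of 12460) and 5 without a filter (378 of 19883). The number of members held was 31 with TMM-scaled CPM, 29 without control 2 and 22 if the full lower control was required. The median log2 difference in CAF-1 OFF stayed positive, from 0.0401 (mean CPM of at least 5, fewer genes) to 0.41 (without control 2), and was 0.10 with the replicate block. List genes called lower in HOXA9 OFF numbered 15, and 7 at 2-fold and FDR under 0.01.

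Replicate numbers were shared by the groups. The labels do not say that they mark a shared culture, and deviations of same-numbered libraries correlated at −0.178 (control and CAF-1 OFF), 0.456 (control and HOXA9 OFF) and 0.0329 (CAF-1 OFF and HOXA9 OFF). The replicate block called 46 list genes in HOXA9 OFF against 47 without it. Near 0, it turned the sign for 8430408G22Rik (0.0233), Aebp1 (0.0497), Cd72 (0.0625) and Myo16 (0.0115). Other settings turned 8430408G22Rik (0.0022 with DESeq2 size factors, 0.0014 by the Wald test, 0.0052 at a mean CPM of 5), Cd72 (0.0019 at a mean CPM of 5) and Spry4 (0.0032, likewise).

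Without 1 library, 16 members changed sign in CAF-1 OFF and 15 did not. Their log2 ranges were −0.37 to 0.49 (8430408G22Rik), −0.45 to 0.53 (Aebp1), −0.40 to 0.53 (Cd72), −1.01 to 0.95 (Dusp4), −0.34 to 0.49 (Etv4), −0.019 to 0.55 (Gimap5), −0.46 to 0.76 (Hspg2), −0.31 to 0.22 (Igsf5), −0.62 to 0.20 (Mmp14), −0.85 to 1.61 (Myh13), −0.42 to 0.43 (Myo16), −0.40 to 0.31 (Rag2), −0.12 to 0.12 (Spry4), −0.13 to 0.67 (Tmem132a), −0.55 to 0.12 (Trp53i11) and −0.32 to 0.13 (Zfp703). The cause of these shifts was not tested. These fits assume that the library left alone in a group varies like those of the other groups. With 2 libraries a group the spread is poorly known, and HOXA9 OFF levels of a few reads have wide counting intervals.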
